A study of Mus musculus with 3 samples.

Results

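Ribosome biogenesis and nucleolar genes were read out in splenic T cells of the mouse after 10 h with LZ-8, a protein of the fungus Ganoderma lucidum that acts on immune cells. The set held 50 listed genes, matched by symbol, with no measured value in the rule. Of these, 49 had a row of their own among the 44788 rows of the count table. The remaining gene, Utp4, had no row under that symbol. Levels are given as CPM, the standard count unit of RNA sequencing, in which the counts of a row are divided by the TMM-scaled library size. A row under the older symbol of Utp4, Cirh1a, held 179.1, 189.3 and 214.1 CPM in replicates 1, 2 and 3, and was kept out of the counts given here. The data were 3 RNA-sequencing libraries, replicates 1 to 3 of a single group. The cells came from spleens of female BALB/c mice aged 6 to 8 weeks, were isolated by beads that bind CD90.2, carried on the surface of T cells, and were kept in RPMI with added serum (FBS). All 3 libraries carried the LZ-8 treatment and none was untreated, so what follows are levels in treated cells and differences between replicate libraries. Whether the replicates were separate animals or separate cultures is not stated. Every p-value here therefore measures only the spread between these libraries, which may be technical.

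Ribosomes are built in the nucleolus. RNA polymerase I transcribes a long precursor of the ribosomal RNAs, small nucleolar RNAs (snoRNAs) bound to core proteins guide its chemical modification, and large sets of assembly factors fold and cut the precursor into the small and the large subunit. Resting T cells hold small nucleoli, and the pathway is known to be raised when T cells are activated and begin to grow, with the transcription factor MYC as one of its regulators. Many snoRNAs are encoded inside introns of genes whose own products make ribosomes, so a host gene and its snoRNAs share 1 precursor transcript.

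The libraries held 13239482, 15007652 and 15683820 counts in total, and 3 counts corresponded to 0.236, 0.198 and 0.186 CPM. All 16 T cell identity genes looked up reached 10 CPM. Their sum ranged from 4588 to 4751 CPM, while the summed markers of B cells, myeloid cells, erythroid cells with platelets, and stroma each stayed between 0.186 and 16.7 CPM in every library. The defining markers Pf4, Ppbp, Csf1r, Col3a1 and Dcn were at 0 in all libraries. In such bulk samples, fewer cells of a type and less RNA per cell cannot be told apart.

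All 49 genes were abundant. Each had a mean of at least 50 CPM, a level that 19.99% of the 23131 rows with a count reached. 40 of the 49 were at 100 CPM or more, against 11.0% of those rows, and 5 genes (Ncl, Ddx21, Npm1, Noc2l and Nolc1) were at 500 CPM or more, against 1.05%. The median gene of the set stood at 175 CPM, and the median row with a count at 2.89 CPM. Together the 49 rows took 1.39%, 1.38% and 1.35% of the scaled library in replicates 1, 2 and 3. The 5 highest genes held 37.3% of that sum, and Ncl alone 16.9%.

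**Figure D1:**
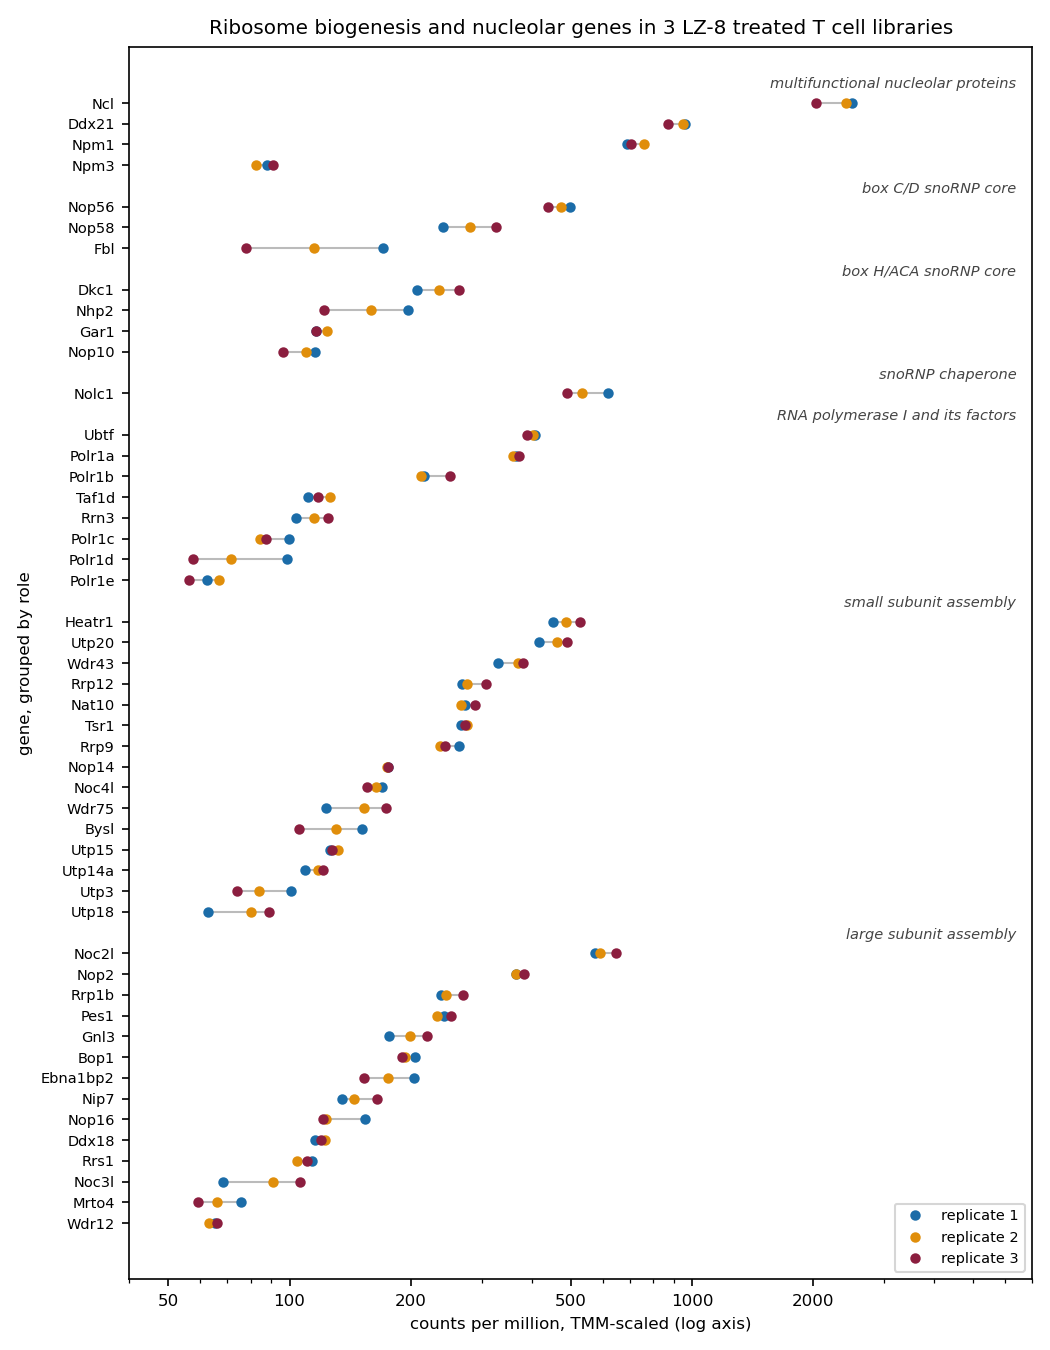
CPM (log axis) of the 49 genes, grouped by role, with 1 point per replicate library and a grey line from the lowest to the highest. The genes run from Polr1e, with a mean of 61.8 CPM, to Ncl at 2319 CPM, and for most genes the 3 points lie close together compared with the distances between genes.

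Between replicates the levels were tight. The median coefficient of variation over the 49 genes was 7.61%, next to 7.41% for all 4623 rows of at least 50 CPM, and it was under 10% for 32 genes. A chi-square test, set against the scaled sizes of the libraries and with Benjamini-Hochberg adjustment over 15392 rows, asks whether the 3 counts of a row differ beyond counting noise. It called 39 of the 49 genes. The same test called 42.8% of all tested rows and 70.6% of the rows of at least 50 CPM, where counts are high enough for small differences to pass. Of the called genes, 17 were highest in replicate 1 (17.9% of all tested rows were called that way), 3 in replicate 2 (5.76%) and 19 in replicate 3 (19.1%). The called genes were thus split between both ends, with 46.2% of them higher in replicate 1 than in replicate 3. With library totals as the only scaling that share was 35.7% of 42 called genes. Differences that were both called and at least 1.5-fold between the highest and the lowest library were found for 4 genes, Fbl, Polr1d, Nhp2 and Noc3l. Over all tested rows 13.8% passed both limits, and over rows of at least 50 CPM 7.59%. No gene of the set passed both limits when replicate 1 or replicate 3 was left out, so these 4 differences lay between replicates 1 and 3.

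Among the multifunctional nucleolar proteins, Ncl, which encodes nucleolin, an RNA-binding protein that acts from transcription to assembly, had 2501.5, 2421.6 and 2035.2 CPM in replicates 1 to 3 (2319 ± 249, SD, n = 3, as for every mean ± SD below).  Replicates 1 and 2 lay close together and replicate 3 lower, a range of 1.23-fold (adjusted p = 3.84e-175, chi-square test). Ddx21, an RNA helicase that binds ribosomal DNA and snoRNAs, had 961.4, 951.4 and 873.4 CPM, again lowest in replicate 3. Its range was 1.101-fold (adjusted p = 4.19e-16), and the call was lost without replicate 3 (adjusted p = 0.6). Npm1, nucleophosmin, a histone chaperone and shuttling protein of the nucleolus, had 690.6, 758.4 and 705.0 CPM in its own row. Npm3, a smaller relative that binds nucleophosmin, had 88.0, 82.4 and 90.8 CPM and was not called (adjusted p = 0.0867).

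Levels of different genes can be compared only per length, and the choice of length mattered. Ncl lies on chromosome 1 (86344719 to 86359400, minus strand, mm10 coordinates), and the union of its annotated exons spans 10188 bases although its longest coding sequence has 2121. Per kilobase of exon union Npm1 led with 269.4 ± 13.4 CPM per kb, followed by Ncl at 227.7 ± 24.5, Noc2l at 210.7 ± 12.95 and Ddx21 at 179.4 ± 9.31. Nhp2 (139.2 ± 32.7), Nolc1 (137.5 ± 16.5), Nop2 (134.0 ± 3.79), Nop56 (114.6 ± 7.11), Nop10 (96.6 ± 8.96) and Rrp9 (84.5 ± 4.77 CPM per kb) completed the 10 highest. Per kilobase of coding sequence, Ncl led with 1094 ± 118 CPM per coding kb, ahead of Npm1 at 819.6 ± 40.8, Nop10 at 558.0 ± 51.8 and Ddx21 at 363.8 ± 18.9. That order rests on the genes' own rows: with the rows of near-identical pseudogene copies added, which are described below, Npm1 led with 1481 ± 138 CPM per coding kb, above Ncl in every library, and Fbl came 4th with 412.2 ± 137. On both scales most neighbours in the order were not separated: the ranges over replicates overlapped for 41 of 48 neighbouring pairs per exon kilobase and for 42 of 48 per coding kilobase. At the lower end stood Wdr12 (5.42 ± 0.130), Taf1d (13.2 ± 0.834), Polr1e (15.9 ± 1.34), Utp18 (21.5 ± 3.72) and Utp15 (21.9 ± 0.511 CPM per exon kb). On the coding scale Taf1d moved up to 122.4 ± 7.72 and Utp15 to 81.0 ± 1.89 CPM per coding kb, while Noc3l was lowest at 36.5 ± 7.89. Polr1e, at 42.8 ± 3.62, and Utp18, at 46.6 ± 8.08 CPM per coding kb, stayed among the lowest on either scale.

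For several of these genes, a large part of the matching reads was counted in rows of processed pseudogenes, which are copies of a messenger RNA inserted elsewhere in the genome. Of the pseudogenes annotated in the mouse, 37 aligned to 16 of the genes with at least 90% identity over at least 50% of the pseudogene. The count table held rows for 20 of them, and 15 reached a mean of 1 CPM. The sources do not give how reads with several matching places were counted, and whether the reads in these rows came from the gene or from its copy was not tested. The sequences below show how closely some of them match. Each pair gives the same stretch of 90 bases of the gene's coding sequence and of the pseudogene, 5′ to 3′, from the GENCODE release M21 transcripts, in lower case with differing bases in capitals.
Fbl, coding bases 448 to 537: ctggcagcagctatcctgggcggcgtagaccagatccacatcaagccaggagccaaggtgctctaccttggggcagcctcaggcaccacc
Gm5812, chromosome 17: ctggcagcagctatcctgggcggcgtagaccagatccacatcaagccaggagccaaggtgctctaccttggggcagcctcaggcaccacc
Npm1, coding bases 338 to 427: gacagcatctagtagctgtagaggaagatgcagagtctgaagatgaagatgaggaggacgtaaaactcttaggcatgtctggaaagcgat
Gm9118, chromosome 10: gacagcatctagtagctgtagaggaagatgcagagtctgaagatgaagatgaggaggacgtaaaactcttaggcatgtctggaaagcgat
Npm3, coding bases 220 to 309: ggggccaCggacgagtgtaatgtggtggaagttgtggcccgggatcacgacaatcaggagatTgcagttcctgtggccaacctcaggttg
Npm3-ps1, chromosome 6: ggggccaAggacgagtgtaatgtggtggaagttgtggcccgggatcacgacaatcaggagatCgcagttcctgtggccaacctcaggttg
Pes1, coding bases 841 to 930: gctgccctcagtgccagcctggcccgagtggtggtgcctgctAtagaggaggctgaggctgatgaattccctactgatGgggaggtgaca
Gm5910, chromosome 8: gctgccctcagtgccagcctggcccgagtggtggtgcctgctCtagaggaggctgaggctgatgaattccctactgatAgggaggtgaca
The Fbl and Npm1 stretches are identical to their copies, and the Npm3 and Pes1 stretches each differ at 2 positions. Over the whole alignment, Gm5812 differed from Fbl in 31 of 984 columns and shared an unbroken run of 651 bases with it. Gm9118 differed from Npm1 in 23 of 765 columns, with a longest identical run of 171 bases, and Npm3-ps1 differed from Npm3 in 6 of 528.

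Fbl encodes fibrillarin, the methyltransferase of the box C/D snoRNA particles. Its own row, for a gene on chromosome 7 (28169710 to 28179269, plus strand), held 171.1, 115.1 and 78.1 CPM in replicates 1 to 3 (121.4 ± 46.8). The row of the pseudogene Gm5812 (chromosome 17, 6121208 to 6122164, minus strand) held 370.2, 273.3 and 195.8 CPM (279.8 ± 87.4), or 230% of the Fbl row. Both rows were highest in replicate 1 and lowest in replicate 3. With its copies added, Fbl came to 544.5, 392.1 and 276.5 CPM (404.4 ± 135), 3.33 times its own row. The range between libraries was 2.19-fold in the Fbl row (adjusted p = 1.56e-112, chi-square test), the largest of the set, and 1.97-fold with the copies (adjusted p = 2.35e-280). The share of the sum held by the copies was much alike in the 3 libraries, 68.6%, 70.6% and 71.8%.

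Adding copies moved the highest library to replicate 1 for Npm1, from replicate 2, and for Npm3 and Pes1, from replicate 3. The Npm3 row alone was not called (adjusted p = 0.0867, chi-square test). The libraries of Wdr12 were not separated, as it was called neither in its own row nor with copies (adjusted p = 0.665 and 0.819). The row of Gm9118 (chromosome 10, 56497341 to 56498094) held 492.6, 389.1 and 331.8 CPM (404.5 ± 81.5), 56.3% of the Npm1 row. Gm6477, also on chromosome 10, held 126.8, 104.5 and 71.6 CPM, and Gm5611 on chromosome 9 held 72.4, 65.4 and 42.1 CPM. All of these were highest in replicate 1 and lowest in replicate 3, whereas the Npm1 row was highest in replicate 2. Adding the 6 copies with a row gave 1396.2, 1333.2 and 1162.7 CPM (1297 ± 121), so that replicate 1 was highest and replicate 3 lowest, with a 1.20-fold range (adjusted p = 5.74e-72). The copies held 50.5% of the sum in replicate 1, 43.1% in replicate 2 and 39.4% in replicate 3. Without replicate 2 the Npm1 row by itself was not called (adjusted p = 0.175).

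For Npm3, Ddx18, Pes1 and Wdr12, copies held more than 20% of the sum. Npm3-ps1 held 102.7, 84.4 and 96.1 CPM, 108% of the Npm3 row, and with it Npm3 came to 181.5 ± 12.9 CPM and was called (adjusted p = 9e-06). Gm16433, a copy of the RNA helicase gene Ddx18 that differs from it in 14 of 1984 columns, held 100.1, 115.1 and 112.7 CPM. The Ddx18 row itself held 116.0, 122.5 and 120.0 CPM. The sum of Ddx18 and its copies was 230.1 ± 10.7 CPM and was called (adjusted p = 0.00394), whereas the Ddx18 row was not (adjusted p = 0.407). Gm5910 and Gm5472 added 61.4 ± 7.21 and 10.7 ± 1.69 CPM to Pes1, and Gm4879 and Gm20156 added 17.1 ± 1.92 and 0.562 ± 0.209 CPM to Wdr12. Smaller amounts lay in Gm13487, a copy of Taf1d at 10.4 ± 2.91 CPM, and Gm12486, a copy of Nip7 at 1.48 ± 0.889 CPM. In all, the 49 genes with their copies summed to 14897 CPM, against 13726 CPM for their own rows.

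**Figure D2:**
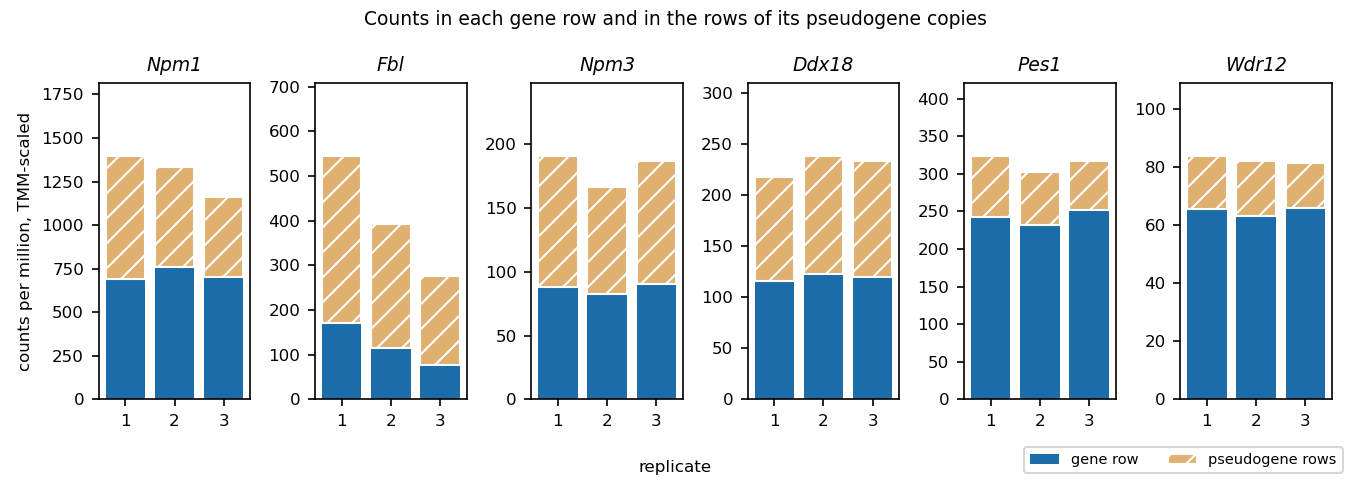
CPM of 6 genes in each of the 3 replicate libraries, as stacked bars of the gene's own row (solid) and the summed rows of its pseudogene copies (hatched). The copies exceed the gene's own row for Fbl in all 3 libraries, and the Npm1 sum is highest in replicate 1 although the Npm1 row is highest in replicate 2.

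In the box C/D core, Nop56 and Nop58, paired scaffold proteins that hold the guide RNA, moved in opposite directions between the libraries. Nop56 had 496.8, 473.4 and 438.9 CPM, highest in replicate 1 (adjusted p = 3.35e-11, chi-square test). Nop58 had 241.3, 281.5 and 325.8 CPM, highest in replicate 3, a 1.35-fold range (adjusted p = 4.23e-38). Per exon kilobase, Nop56 stood above Fbl by 1.58, 2.08 and 2.53 on the log2 scale (mean 2.06 ± 0.48), and per coding kilobase by 1.20 ± 0.48. The log2 ratio of Nop58 to Fbl was −0.86, −0.06 and 0.71 per exon kilobase (mean −0.07 ± 0.78) and 0.57 ± 0.78 per coding kilobase. Its sign differed between libraries on both scales, and without replicate 1 the mean per exon kilobase was 0.32. These ratios use the Fbl row without its copies, and adding the copies changed both. Per coding kilobase with copies, the log2 ratio of Nop56 to Fbl was −0.96, −0.55 and −0.16 and that of Nop58 to Fbl −1.89, −1.19 and −0.48, so that Fbl stood above both in every library. Pseudogenes that aligned to Nop56 had no row in the count table, so copies were added on the Fbl side only. With 3 libraries an exact two-sided sign-flip test cannot go below p = 0.25, so these ratios were not tested.

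The box H/ACA core comprises the pseudouridine synthase Dkc1 with Nhp2, Nop10 and Gar1. Dkc1 had 207.2, 235.5 and 263.9 CPM, highest in replicate 3 (1.27-fold, adjusted p = 1.96e-20, chi-square test). Nhp2 ran the other way with 196.9, 159.7 and 121.8 CPM, a 1.62-fold range (adjusted p = 6.36e-55), and Nop10 likewise with 115.5, 109.8 and 96.1 CPM (adjusted p = 6.13e-06), whose call was lost without replicate 3 (adjusted p = 0.341). Gar1 held 116.5, 124.2 and 116.5 CPM and was not called (adjusted p = 0.149). The 3 small partners stood above Dkc1 in all libraries per exon kilobase, Nhp2 by 1.26 ± 0.52, Nop10 by 0.76 ± 0.31 and Gar1 by 0.29 ± 0.18 on the log2 scale. Per coding kilobase the log2 differences were 1.15 ± 0.52, 1.86 ± 0.31 and 0.16 ± 0.18, and that of Gar1 changed sign in replicate 3. Nolc1, a chaperone that escorts snoRNA particles to the nucleolus, had 617.7, 531.7 and 488.9 CPM, with replicate 1 apart from the others (1.26-fold, adjusted p = 2.9e-47).

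Some of the 49 genes, among them Nop56 and Nop58 of the box C/D core, also carry snoRNAs in their introns. GENCODE release M21 places 29 snoRNA genes inside the 49 genes on the same strand, and the table held rows for 13 of them, in 7 hosts. The sequences of 7, from the hosts Nop56, Nop58, Ncl and Gnl3, are shown. They are given 5′ to 3′ as DNA from the GENCODE transcripts, with box C (TGATGA near the 5′ end) and box D (CTGA near the 3′ end) in capitals where these exact letters were found, and for Snora75 the terminal ACA.
Snord110 in Nop56: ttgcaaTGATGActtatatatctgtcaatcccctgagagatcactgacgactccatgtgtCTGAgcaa
Snord57 in Nop56: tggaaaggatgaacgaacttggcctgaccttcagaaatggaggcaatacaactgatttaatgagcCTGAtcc
Snord11 in Nop58: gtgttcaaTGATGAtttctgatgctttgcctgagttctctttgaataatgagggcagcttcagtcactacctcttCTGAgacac
Snord70 in Nop58: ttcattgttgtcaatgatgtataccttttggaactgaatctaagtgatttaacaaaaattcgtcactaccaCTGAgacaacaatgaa
Snord82 in Ncl: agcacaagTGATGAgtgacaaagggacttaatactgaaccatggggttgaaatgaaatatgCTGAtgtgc
Snora75 in Ncl: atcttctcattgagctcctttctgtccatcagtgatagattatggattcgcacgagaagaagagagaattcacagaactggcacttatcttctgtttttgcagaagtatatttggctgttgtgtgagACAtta
Snord69 in Gnl3: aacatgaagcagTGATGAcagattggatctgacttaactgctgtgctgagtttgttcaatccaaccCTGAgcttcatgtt
Their counts were low next to the hosts, from 0.0823% to 1.89% of the host's CPM for the 12 rows with enough counts to test.

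In Nop56, Snord110 had 136, 51 and 49 counts in replicates 1 to 3, and Snord57 had 185, 107 and 82. After scaling, Snord110 was 3.52 times and Snord57 2.86 times as high in replicate 1 as in replicate 3 (adjusted p = 4.54e-20 and 4.95e-17, chi-square test). The host, also highest in replicate 1, differed by 1.13-fold. The Nop58 rows and their host pointed opposite ways: Snord11 had 39, 21 and 11 counts and Snord70 had 22, 6 and 5, both highest in replicate 1, where Nop58 was lowest. Wdr43, a factor of the small subunit, had 328.8, 369.2 and 381.0 CPM. Inside it Snord53 showed the same opposition, with 48, 28 and 15 counts. Snord92 had 35, 43 and 16 counts and was highest in replicate 2 (2.75, 2.84 and 0.991 CPM). Snord53 and Snord92 were both lowest in replicate 3 (adjusted p = 4.04e-06 and 0.00148). In Ncl, Snord82 had 188, 151 and 156 counts and Snora75 had 68, 59 and 48, both called (adjusted p = 0.000212 and 0.0178), and the row named Mir3535, typed as a snoRNA, had 26, 38 and 19 and was not (adjusted p = 0.0527). Rows lowest in replicate 1 were found only in Gnl3, which encodes nucleostemin. Its rows Snord19 (19, 41 and 43 counts) and Snord69 (21, 35 and 56 counts) were lowest in replicate 1, as was the host with 176.8, 199.6 and 219.6 CPM. Of these, Snord69 was called (adjusted p = 0.0205) and Snord19 was not (adjusted p = 0.125). Snord91a in Tsr1 had 53, 48 and 44 counts (adjusted p = 0.179), and Mir7650 in Taf1d had 1 count in all. Among the 13 rows 9 were highest in replicate 1, with the untested Mir7650 counted in. Of the 12 tested rows 9 were called. Over the whole table, 79 of 111 tested snoRNA rows were called and 87 were highest in replicate 1. Most of the calls inside the hosts rested on that library: without replicate 1, Snord92 was still called, and the other called rows had adjusted p from 0.0858 (Snord57) to 0.89 (Snord82), while Mir3535 became called (adjusted p = 0.0281). Without replicate 3 the calls of Snora75, Snord92 and Snord69 were lost (adjusted p = 0.2, 0.949 and 0.419).

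**Figure D3:**
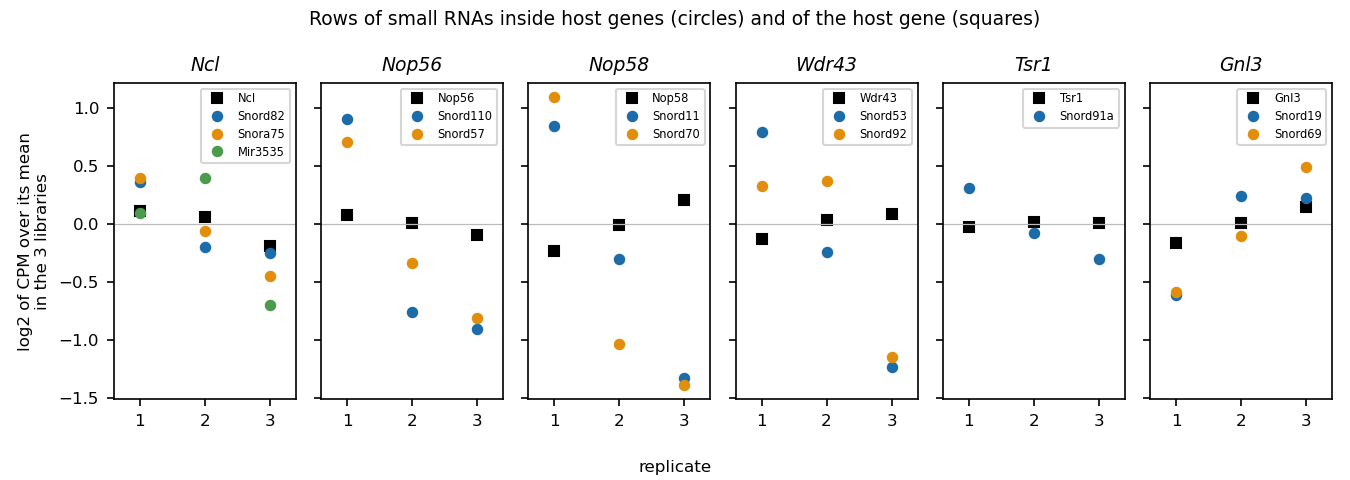
For 6 host genes, the log2 of the CPM over its own mean in the 3 libraries, by replicate, for the host (squares) and for the snoRNA rows inside it (circles). The rows inside Nop58 lie high in replicate 1 where Nop58 lies low, and the rows inside Gnl3 lie low in replicate 1 together with Gnl3.

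RNA polymerase I and its factors had a median of 116 CPM, or 79.0 CPM per coding kb, close to the 76.0 CPM per coding kb of the small subunit factors. Per exon kilobase the 2 groups lay further apart, with medians of 28.6 and 52.9 CPM per kb. Polr1a, the largest and catalytic subunit, was among the steadiest genes of the set with 364.4, 358.6 and 370.7 CPM, a 1.03-fold range that was not called (adjusted p = 0.314, chi-square test). Polr1b, its catalytic partner, had 216.3, 212.5 and 250.6 CPM, higher in replicate 3 than in the other libraries (adjusted p = 1.03e-12). Polr1c and Polr1d, which the enzyme shares with RNA polymerase III, differed in spread. Polr1c had 99.9, 84.3 and 87.2 CPM (adjusted p = 0.000132), and Polr1d had 98.4, 71.7 and 57.5 CPM, a 1.71-fold range (adjusted p = 2.37e-34). Polr1e, a peripheral subunit, had 62.3, 66.8 and 56.4 CPM (adjusted p = 0.00323). Without one library some of these calls were lost: Polr1b without replicate 3 (adjusted p = 0.691), Polr1c without replicate 1 (adjusted p = 0.593), and Polr1e without replicate 2 or replicate 3 (adjusted p = 0.0975 and 0.314). Relative to Polr1a per exon kilobase, the log2 level was 0.34 ± 0.11 for Polr1b, 0.37 ± 0.13 for Polr1c and −0.96 ± 0.15 for Polr1e, each with one sign in all 3 libraries. That of Polr1d was 0.07, −0.36 and −0.72. Per coding kilobase Polr1d stood above Polr1a in every library (1.39 ± 0.40) and Polr1b was not separated from it (−0.09 ± 0.11), so the order of these subunits depended on the length used. Polr1c (0.30 ± 0.13) and Polr1e (−0.73 ± 0.15) kept their side.

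Among the initiation factors of the polymerase, Ubtf, the architectural protein of ribosomal DNA, was highest with 408.0, 402.7 and 388.9 CPM and was not called (adjusted p = 0.0612, chi-square test), though it was with DESeq2 size factors (adjusted p = 0.0447) and without replicate 2 (adjusted p = 0.0416). Rrn3, which links the polymerase to its promoter complex, had 103.6, 115.3 and 124.3 CPM, lowest in replicate 1 (adjusted p = 1.05e-05), a call lost without that library (adjusted p = 0.0814). Taf1d, a subunit of the selectivity factor, had 110.9, 125.8 and 118.0 CPM. Its call (adjusted p = 0.00474) was lost without replicate 1 or replicate 2 (adjusted p = 0.141 and 0.128).

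The small subunit factors ranged from Utp18 at 77.2 ± 13.4 CPM to Heatr1 at 488.8 ± 38.3 CPM, and 12 of the 15 were called. The test called 42.8% of all tested rows and 70.6% of those of at least 50 CPM. Heatr1, Utp15, Wdr43 and Wdr75 belong to UTP-A, the complex that first binds the nascent precursor RNA. Heatr1 had 451.5, 486.7 and 528.1 CPM, Wdr75 had 122.9, 153.3 and 174.1 CPM, and both were lowest in replicate 1 (adjusted p = 3.28e-18 and 5.19e-26, chi-square test). Utp15 had 125.8, 131.6 and 127.4 CPM, with no call (adjusted p = 0.485). Wdr43 was called (adjusted p = 4.34e-12) but not without replicate 1 (adjusted p = 0.224). Against Heatr1, the log2 level per exon kilobase was 0.27 ± 0.04 for Wdr43, −1.04 ± 0.14 for Wdr75 and −1.51 ± 0.11 for Utp15. Per coding kilobase it was 1.22 ± 0.04, −0.35 ± 0.14 and 0.09 ± 0.11. On both scales Wdr43 stood above the other UTP-A genes measured in every library, while the place of Utp15 depended on the length used.

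The steadiest gene of the whole set was Nop14, a factor of the small subunit, with 175.5, 174.2 and 175.9 CPM and a 1.01-fold range (adjusted p = 0.951, chi-square test). Tsr1, a GTPase-like factor of late small subunit maturation, was nearly as steady with 267.0, 275.9 and 273.5 CPM (adjusted p = 0.463). Bysl, another small subunit factor, ranged widest within the group, with 151.8, 130.1 and 105.4 CPM (1.44-fold, adjusted p = 6.95e-26). Utp18 had 62.6, 80.1 and 88.9 CPM, the opposite order (1.42-fold, adjusted p = 1.66e-13). Rrp9, a protein specific to the U3 snoRNA particle, had 263.3, 236.2 and 243.7 CPM. Its call (adjusted p = 9.84e-05) was lost without replicate 1 (adjusted p = 0.357) and with totals as scaling (adjusted p = 0.0573). Utp3 was highest in replicate 1 (86.2 ± 13.5 CPM), and Utp20 (455.8 ± 37.4), Rrp12 (284.0 ± 21.4) and Utp14a (116.2 ± 6.20 CPM) in replicate 3. Nat10, the acetyltransferase of the small subunit's RNA, stood at 276.2 ± 10.9 CPM and Noc4l at 163.1 ± 7.29 CPM, with ranges of 1.08-fold and 1.09-fold. The calls of Rrp12 and Nat10 were lost without replicate 3 (adjusted p = 0.401 and 0.564). Those of Utp14a and Noc4l were lost without replicate 1 (adjusted p = 0.607 and 0.155) and without replicate 3 (adjusted p = 0.11 and 0.44), and that of Noc4l also with totals as scaling (adjusted p = 0.542).

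Of the 14 large subunit factors, 11 were called, beside 42.8% of all tested rows and 70.6% of those of at least 50 CPM. Noc2l was highest with 575.4, 590.7 and 646.0 CPM, and replicate 3 stood apart (adjusted p = 2.11e-14, chi-square test). Without replicate 3 it was not called (adjusted p = 0.242). Noc3l, its partner in a complex that accompanies early large subunit particles, was much lower, with 68.2, 91.0 and 106.1 CPM. Its 1.56-fold range (adjusted p = 3.65e-24) was the largest of any gene that was highest in replicate 3. Nop2, a methyltransferase of the large subunit's RNA, had 364.4, 366.3 and 383.5 CPM. That 1.05-fold difference passed the test at these counts (adjusted p = 0.0281) but not without replicate 3 (adjusted p = 0.897) or without replicate 1 (adjusted p = 0.0524).

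Pes1, Bop1 and Wdr12 form a trimer required for large subunit maturation. Pes1 had 242.4, 231.9 and 252.4 CPM, Bop1 had 204.8, 193.1 and 190.7 CPM, and Wdr12 had 65.4, 63.1 and 66.0 CPM. Wdr12 was not called (adjusted p = 0.665, chi-square test), and the calls of Pes1 (adjusted p = 0.00386) and Bop1 (adjusted p = 0.0449) rested on ranges of 1.09-fold and 1.07-fold. The Pes1 call was lost without replicate 2 or replicate 3 (adjusted p = 0.134 and 0.199). Bop1's call was lost without replicate 1, without replicate 3, with totals as scaling and with no filter on low counts (adjusted p = 0.79, 0.102, 0.956 and 0.0651). Within the trimer the levels were ordered Pes1, Bop1, Wdr12 in every library on both length scales. The log2 ratio to Pes1 per exon kilobase was −0.27 ± 0.09 for Bop1 and −3.88 ± 0.03 for Wdr12, whose annotated exons span 11955 bases for a coding sequence of 1269. Per coding kilobase the log2 ratios were −0.62 ± 0.09 and −1.43 ± 0.03, and with pseudogene copies added −0.996 ± 0.048 and −1.46 ± 0.047.

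The other large subunit genes split by direction. Ebna1bp2 (177.3 ± 25.6), Nop16 (132.7 ± 18.2) and Mrto4 (67.0 ± 8.25 CPM) were highest in replicate 1. Gnl3, Rrp1b (250.6 ± 16.5) and Nip7, with 135.2, 144.7 and 164.5 CPM, were highest in replicate 3. Without replicate 1, Nop16 and Mrto4 were not called (adjusted p = 0.796 and 0.0539, chi-square test), and without replicate 3 neither were Nip7 and Rrp1b (adjusted p = 0.117 and 0.377). Rrs1 (109.4 ± 4.61 CPM) and Ddx18 were not called.

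**Figure D4:**
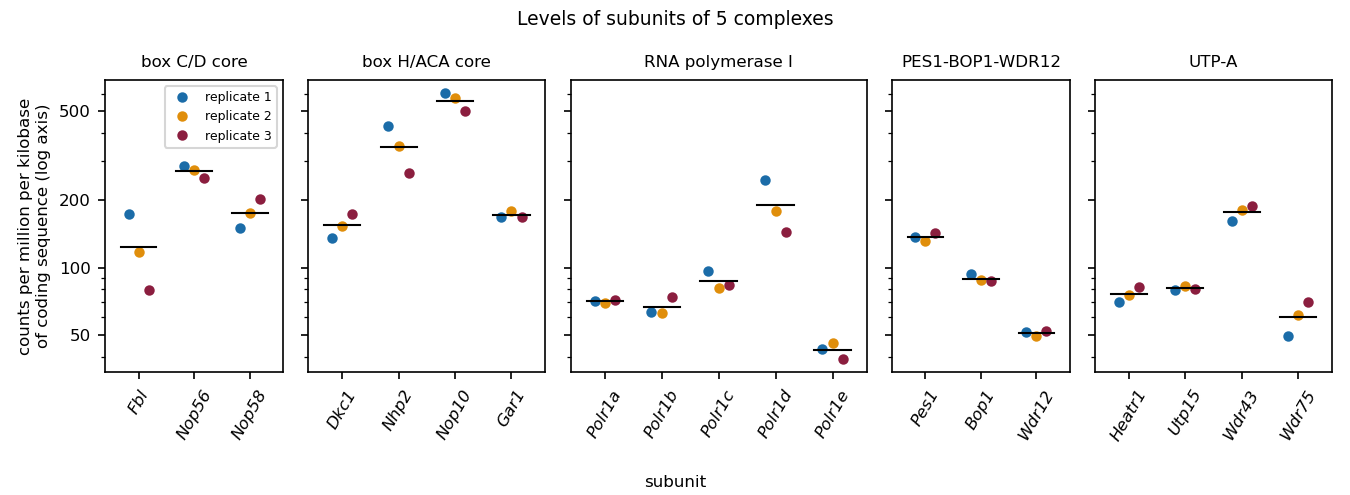
Levels per kilobase of coding sequence (log axis) of the subunits of 5 complexes, with 1 point per replicate and a bar at the mean of the 3 libraries. Pes1, Bop1 and Wdr12 keep the same order in all libraries, whereas Fbl and Nop58, in their own rows without pseudogene copies, change places between replicate 1 and the other libraries.

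The split between genes high in replicate 1 and genes high in replicate 3 went with length and base composition. Across the 49 genes, the log2 ratio of replicate 1 to replicate 3 had a Spearman correlation of −0.49 with coding length and of 0.44 with the G+C content of the exons. Across all coding rows in the trend (8993 rows of at least 5 CPM) the values were −0.31 and 0.405. These correlations are descriptions over genes that share the same libraries. The 12 genes with the shortest coding sequences (192 to 981 bases) had a median log2 ratio of 0.30, and 8 of them were higher in replicate 1. Of the 12 with the longest (2382 to 8367 bases), 1 was higher in replicate 1, and the median was −0.14. Likewise 1 of the 12 genes lowest in G+C (40.2% to 45.4%) was higher in replicate 1, against 9 of the 12 highest (53.9% to 59.9%).

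As a set, the genes did not lean to either library. Their median log2 ratio was −0.02, next to −0.02 over all tested rows and −0.06 over rows of at least 50 CPM, and 21 of 49 were higher in replicate 1. The genes of the ribosomal proteins themselves, with a median coding length of 454 bases against 1656 for the set, had a median of 0.61, and 75 of 80 were higher in replicate 1. After a spline trend of all coding genes with exon length and G+C content was taken off, the median ratio was 0.00 for the set and 0.47 for the ribosomal protein genes. With that trend taken off, Fbl stood at 1.12, Polr1d at 0.73 and Bysl at 0.49. Ncl rose from 0.30 to 0.53, Nhp2 dropped from 0.69 to 0.34 and Noc3l moved from −0.63 to −0.49. The trend used the length of the exon union, so coding length itself was not taken off. What makes the libraries differ by length was not tested.

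**Figure D5:**
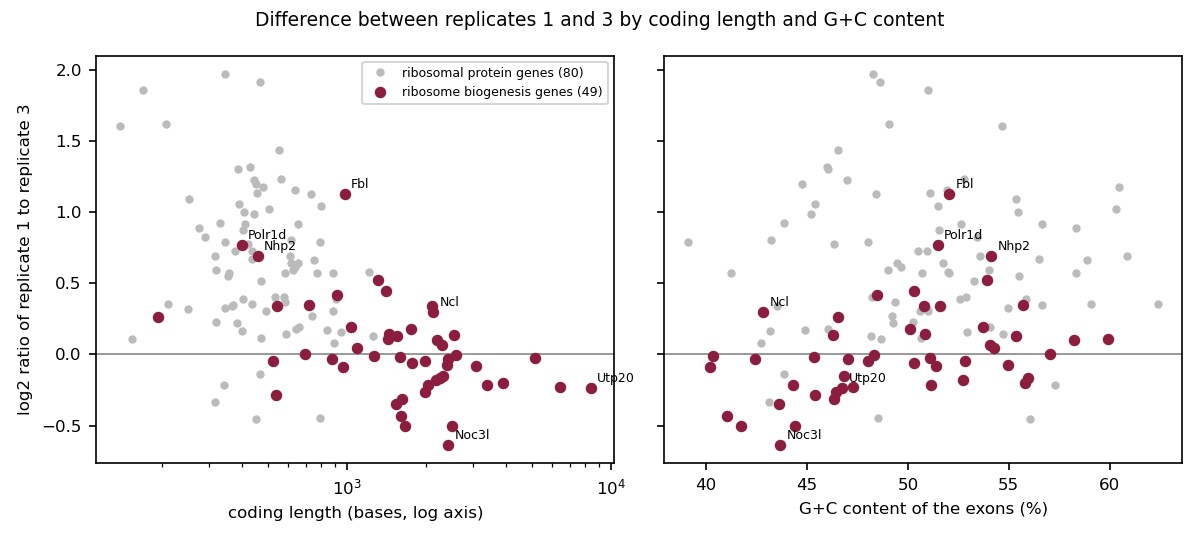
The log2 ratio of replicate 1 to replicate 3 for the 49 ribosome biogenesis genes (dark) and 80 ribosomal protein genes (grey), against coding length (left, log axis) and G+C content of the exons (right). Short genes such as Polr1d and Nhp2 lie above 0 and long genes such as Utp20 below it, and 75 of the 80 ribosomal protein genes lie above 0.

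The rest of the pathway was read out from 5 lists of other small subunit, large subunit, snoRNA particle, polymerase I and exosome genes. Of 146 genes listed, 145 had a row, 143 reached 10 CPM and 64 reached 100 CPM. The chi-square test called 91 of 144 (63.2%), against 42.8% of all tested rows and 70.6% of rows of at least 50 CPM. Among the called genes 44 were highest in replicate 1 and 37 in replicate 3. In these lists 17 genes (11.8%) were called and at least 1.5-fold apart, near the 13.8% of all tested rows. Of the 91, 52.7% were higher in replicate 1 than in replicate 3, against 41.0% of 105 called genes with totals as scaling.

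The genes named from each list are those with the most counts, which favours long genes. In the large subunit list these were Mdn1, Mybbp1a and Ftsj3. Mdn1, the giant ATPase that strips assembly factors from the large subunit, had 1329.4, 1432.1 and 1582.0 CPM. Mybbp1a, a nucleolar regulator, had 1347.8, 1299.0 and 1383.2 CPM, and was ahead of Mdn1 per length (333.2 against 86.4 CPM per coding kb). Ftsj3, an RNA methyltransferase, had 373.1, 391.3 and 391.0 CPM. In the small subunit list the genes with the most counts were steady. Pdcd11 had 409.8, 409.9 and 406.1 CPM, Nol6 had 337.6, 337.8 and 323.1 CPM, and Pwp2 had 233.3, 235.3 and 233.9 CPM, with none of the 3 called (adjusted p = 0.884, 0.0793 and 0.956, chi-square test).

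Polr2e, a subunit common to the nuclear RNA polymerases, had 260.7, 311.3 and 201.1 CPM, highest in replicate 2, and led the polymerase I list per length too, at 409.1 CPM per coding kb. Next by counts were Taf1c (80.1 ± 4.04) and Cd3eap (53.3 ± 2.37 CPM), and next per length Polr2f (96.8) and Polr2h (91.5 CPM per coding kb). Ruvbl2, an ATPase of snoRNA particle assembly, had 265.1, 231.1 and 200.9 CPM, with Nhp2l1 (99.8 ± 12.5) and Ruvbl1 (62.5 ± 6.03 CPM) next by counts. Per length Nhp2l1 stood above Ruvbl2 (259.8 against 167.3 CPM per coding kb). In the exosome list, Xrn2, a nuclease that trims the precursor, had 220.3, 228.2 and 232.7 CPM, Exosc10 181.1 ± 15.4 CPM and Skiv2l2 138.3 ± 19.2 CPM. Myc stood at 649.3, 647.9 and 607.3 CPM, a 1.07-fold range that was called (adjusted p = 6.32e-06). Trp53 (257.6 ± 20.4) and Max, the partner of MYC (146.4 ± 17.0 CPM), followed among the regulators. Ubtfl1 had no count in any library, which allows up to 0.236 CPM in replicate 1.

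Some of the genes lay close to the start of another gene. 18 of the 49 (36.7%) had the start of another coding gene on the opposite strand within 1000 bases, head to head, against 10.8% of 22028 annotated coding genes and 18.8% of 8056 coding genes of at least 10 CPM. Of 19 such neighbours with a row, 14 reached 10 CPM. The starts of Noc4l and of Ddx51, an RNA helicase of the same pathway, lie 34 bases apart, and Ddx51 had 74.9, 85.2 and 106.2 CPM where Noc4l had 169.8, 164.1 and 155.4. That pair was ordered in opposite directions over the libraries. Mrto4 (67.0 ± 8.25 CPM) lies next to Emc1 at 11 bases and to Ubr4, a large ubiquitin ligase gene at 1390 ± 98.7 CPM. Bop1 lies 145 bases from Hsf1, the heat shock regulator, at 146.7 ± 3.43 CPM. The annotated bounds of some genes, introns included, also overlap those of a gene on the other strand. The overlap was 2984 bases for Tsr1 and Srr (5.55 ± 0.461 CPM) and 2319 bases for Polr1e and Fbxo10 (5.60 ± 0.462 CPM). Whether strand was used in counting is not stated, so reads from any exons shared there cannot be told apart.

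Upstream sequences were available for 44 of the 49 genes in the RefSeq table (build GRCm38.p6), with 250 bases before and 50 after each start. Npm1, Fbl, Rrp12, Bop1 and Rrs1 were not in it. The E-box CACGTG, the letters that MYC with MAX is known to bind, occurred in 7 of 44 (15.9%), against 8.09% of all 27025 genes in the table and 12.9% of the 6562 genes of at least 10 CPM. The letters CCGGAAG, typical of ETS factors, occurred in 15 (34.1%, against 9.93% and 25.02%), and ATGGCGG, typical of YY1, in 8 (18.2%, against 4.69% and 11.8%). TATAAA occurred in 2 (4.55%, against 15.7% and 7.94%), GCATGCGC, typical of NRF1, in 1 (2.27%, against 3.05% and 7.27%), and CTCGCGAG in 1 (against 1.04% and 2.64%). Both strands were searched, each gene was counted once per motif, and matches to different motifs did not overlap in the set. The median G+C content of the windows was 58.5% for the set, 52.7% for all genes and 61.7% for the genes of at least 10 CPM. The stretches around the E-boxes of Nop2 and Utp18 are shown because each holds 1 E-box and lies wholly before the start, with the E-box in capitals.
Nop2, chr6:125131803-125131848, plus strand: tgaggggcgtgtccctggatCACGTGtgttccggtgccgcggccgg
Utp18, chr11:93885767-93885806, minus strand: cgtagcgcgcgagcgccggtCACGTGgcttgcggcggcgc
Nop2 and Utp18 differed in level and in spread (371.4 ± 10.5 against 77.2 ± 13.4 CPM), and a match of letters is a description of the sequence.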

How the data were processed

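Messenger RNA was measured in 3 libraries of LZ-8 treated mouse splenic T cells, with the Ion Proton platform, per the labels. The authors deposited raw counts per gene symbol, 1 column per replicate. The submitters' processing notes name the build mm10. Not given in the sources used here are the aligner, the annotation, the use of strand and the counting of reads with several matching places, so overlapping genes and near-identical copies are uncertain. Members and lists were chosen with earlier results of these data known.

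Counts were scaled by TMM (edgeR 4.0.16, R 4.3.3; factors 0.962, 1.01 and 1.03) to CPM. The 3 raw counts of each row were tested by chi-square against the scaled library sizes, for rows with an expected count of at least 5 in each library, with Benjamini-Hochberg adjustment at 0.05. The test was also run on counts simulated with counting noise only, over 15390 genes. Of genes raised 1.25-, 1.5-, 2- and 4-fold in replicate 1 alone, 46%, 54%, 78% and 98% were recovered. There 5.48% of the calls were false. That share holds for counting noise only, and the share in the real libraries was not estimated. Log2 ratios used a pseudocount of 0.5 CPM. The ratio trend was a robust spline with 6 degrees of freedom for each of exon length and G+C content.

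Gene models came from GENCODE release M21, which held 31006 of the table's symbols, and another 1204 by an older name. Pseudogenes were aligned with blastn 2.17.0. Values per replicate are given for the 10 highest and 5 lowest genes per exon kilobase, all genes of the 5 complexes, the 5 largest and 3 smallest ranges between libraries, genes with a pseudogene copy of at least 1 CPM or a snoRNA row. The 3 genes of each pathway list with the highest mean CPM, and Myc, are named, some by mean and SD only; other pathway genes are named for their level per length, chosen after seeing the data. Sums and ratios with pseudogene copies, the coding-length scale, the background of rows of at least 50 CPM and the row of the older symbol were added after seeing the data. Alternatives covered DESeq2 1.42.0 size factors, no scaling factor, other limits, thresholds, pseudocounts and lengths, and leaving out each replicate. The planned comparison of protein sequences was not run.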

Additional observations from a re-analysis of the deposited data

How the results depend on the processing

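The counts of genes reaching 10 and 100 CPM (49 and 40) did not change under DESeq2 size factors, library totals, limits of 5 and 20 CPM or any library left out. With pseudogene copies added, 41 genes reached 100 CPM. With the Cirh1a row counted as Utp4, 50 reached 10 CPM and 41 reached 100 CPM. The summed level of 13726 CPM was 14191.7 CPM without the 18S and small RNA rows and 14897 CPM with pseudogene copies added. It ranged from 13615.1 to 13916.6 CPM with a library left out. The 39 called genes were 25 to 36 with a library left out, fewest without replicate 3, where 2 libraries were compared, and 35 to 42 under the other settings. Calls held under every alternative for 17 of the 39. The 4 called genes of at least 1.5-fold were 0 to 4 with a library left out (0 without replicate 1 and without replicate 3) and 4 to 6 otherwise. Against rows of at least 50 CPM the background share of calls was 70.6% in place of 42.8%. The median log2 ratio of replicate 1 to replicate 3 (−0.0248) was −0.0182 with DESeq2 size factors, −0.1229 with library totals, 0.0029 after the length and G+C trend and 0.0005 with copies added. Totals also moved the median of all tested rows, from −0.0172 to −0.1087. The Npm1 ratio of replicate 2 to replicate 1 was 0.955 with copies added, a reversal. Mean log2 subunit ratios changed sign for Nop56 to Fbl (−0.558 per coding length with copies added), Nop58 to Fbl (from −0.0719 to 0.57 by coding length; −0.461 to 0.32 with a library left out), Polr1b to Polr1a (−0.0937 by coding length), Polr1d to Polr1a (0.47 by longest transcript, 1.39 by coding length) and Utp15 to Heatr1 (0.0935 by coding length). The cause of these changes was not tested, beyond the lengths and copies entering each ratio. Of 144 tested pathway genes, 61 to 105 were called over all settings. No paired analysis was possible because there was 1 group.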
